A study of Mus musculus with 6 samples.

Results

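The SLC25 family is the set of nuclear genes for mitochondrial carriers, and its transcripts were followed in mouse spleen CD4+ T cells that had been activated with or without CpdA, a Gpr120 agonist per the series' design. Members were the protein-coding genes in the deposited table whose symbol is Slc25a followed by a number, and 44 of the 21139 listed genes met this rule. Slc25a21, Slc25a31, Slc25a48 and Slc25a52 were not analysed here. All cells were from strain C57BL/6J and were activated for 2 days with antibodies to CD3 and CD28, in RPMI medium with serum, sodium pyruvate and 2-mercaptoethanol. The medium group (3 libraries) had no compound, and the CpdA group (3 libraries) had the compound at 20, in a unit read here as µM because the labels write it as a length. The sources used here give neither the vehicle nor the age and sex of the mice. No label states whether the 3 libraries in each group are from different mice or cultures, and p-values therefore cover just the spread among these 6 libraries, which may be technical.

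Mitochondrial carriers are membrane proteins, most of them in the inner membrane, that move nucleotides, phosphate, amino acids, carboxylates, cofactors and protons across it. They are made in the cytosol and are led by small chaperones of the intermembrane space to the TIM22 complex, which inserts them. Activated T cells grow and divide, and draw on mitochondria for citrate, aspartate, one-carbon units and nucleotides as well as for ATP.

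Library totals ran from 20247761 to 25952169 counts, and 13507 genes had enough counts to be tested. Each pair of libraries within a group differed by more than sampling noise (chi-square per degree of freedom 2.18 to 4.18 within groups, and 10.8 to 18.7 between them). All 7 markers of CD4 T cells were present, with a summed level of 2100 to 2140 CPM (counts scaled to a common library total) in medium and 2020 to 2070 with CpdA. Of these 7, 5 fell with CpdA (Cd4 by 0.20 on the log2 scale, adjusted p 4.96e-07), 1 rose (Cd5, by 0.14, adjusted p 1e-04) and 1 was not called (Lck). Summed levels of the marker lists overlapped between the groups for CD8 T cells (2 markers, 7.33 to 9.40 CPM in all), B cells (4 markers, 22.2 to 28.2 CPM), dendritic cells (4 markers), NK cells (3 markers, nearly all Gzma, with Ncr1 and Klrb1c at or near 0) and erythroid cells (5 of 6 markers listed, at most 1.23 CPM). Among the B cell markers Ms4a1 was called higher (log2 fold change 0.54, adjusted p 0.0349), and the other 3 were not called. The 4 macrophage markers summed to 4.70 to 5.68 CPM in medium and 4.16 to 4.25 with CpdA. Nearly all of this was Cd68, which was called lower (log2 fold change -0.38, adjusted p 0.0385). Adgre1 (under its older symbol), Csf1r and Lyz2 were at or near 0. The 1 neutrophil marker listed, Ly6g, was at 5.42 to 6.52 CPM in medium and 4.55 to 5.63 with CpdA, and the part of these cells in the results was not tested.

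Of the 44 SLC25 genes, 40 could be tested and 12 changed with CpdA, 7 of them upward and 5 downward. This is 30% of the tested members, against 33.2% of all tested genes. By direction, 16.5% of all tested genes were higher and 16.7% were lower, so the members' share is near the background. A gene counted as changed at an adjusted p under 0.05 in edgeR's quasi-likelihood test, with p-values adjusted over all 13507 genes by the Benjamini-Hochberg method. In bulk RNA, fewer cells of a type and less RNA per cell cannot be told apart, and this holds for every level given here. The groups did not overlap for 17 of the 40 tested members (42.5%), against 43.9% of all tested genes. The median log2 fold change of the members was 0.02, and that of all tested genes was 0.00. Changes were small: the highest was 1.29-fold (Slc25a33) and the lowest 0.819-fold (Slc25a36). As a share of all counts, the members together held 0.277, 0.282 and 0.278% in the medium libraries and 0.287, 0.280 and 0.285% with CpdA, which overlap.

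**Figure D1:**
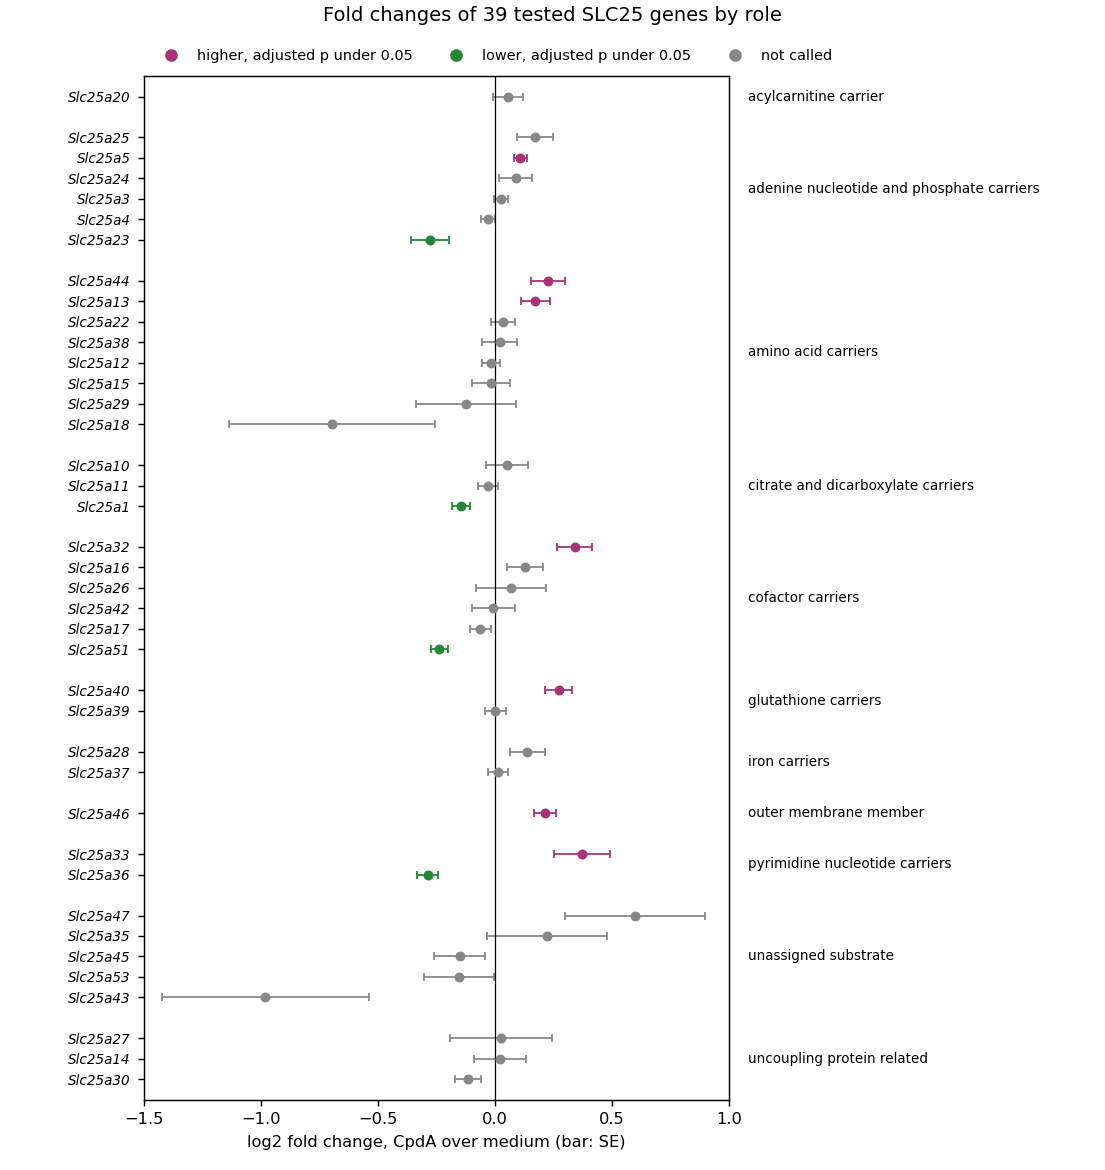
Log2 fold change of CpdA over medium (x axis, bars 1 SE) for 39 tested SLC25 genes, grouped by what they carry. The 7 genes called higher and the 4 called lower lie between -0.29 and 0.37, and the uncalled genes farthest from 0 (Slc25a43, Slc25a18 and Slc25a47) have wide errors.

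Promoter sequences are shown for 4 changed members, 2 higher and 2 lower, because they share a CACGTG motif while their transcripts moved in opposite directions. They were chosen after the sequences had been read. RefSeq windows of 300 bases (250 before to 50 after a gene's start, build GRCm38.p6) were found for 33 members, 42 windows in all, and for 7 of the 12 changed members (8 windows). Motifs searched on both strands were the E-box (letters CACGTG), the CCAAT box, the NRF1 core (letters GCGCATGC) and the amino acid response element (letters TGATGNAA). All 4 genes lie on the minus strand, and the bases before the start are printed 5′ to 3′, at chr6:6217174-6217423 for Slc25a13, chr4:149774268-149774517 for Slc25a33, chr16:17928220-17928469 for Slc25a1 and chr9:97111158-97111291 for Slc25a36. Capitals mark the E-box and the CCAAT box, which reads ATTGG on the other strand. The window of Slc25a1 holds 2 CCAAT matches, and 1 of them lies after the start, in bases that are not printed.
Slc25a13: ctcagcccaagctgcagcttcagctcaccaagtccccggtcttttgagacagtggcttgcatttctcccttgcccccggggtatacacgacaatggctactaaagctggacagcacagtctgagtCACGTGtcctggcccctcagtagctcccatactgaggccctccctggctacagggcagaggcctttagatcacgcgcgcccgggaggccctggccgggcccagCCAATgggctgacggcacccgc
Slc25a33: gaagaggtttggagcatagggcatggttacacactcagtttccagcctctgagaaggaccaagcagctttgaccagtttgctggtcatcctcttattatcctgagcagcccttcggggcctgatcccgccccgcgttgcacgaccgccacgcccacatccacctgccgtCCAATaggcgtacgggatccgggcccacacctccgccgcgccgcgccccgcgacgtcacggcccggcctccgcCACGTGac
Slc25a1: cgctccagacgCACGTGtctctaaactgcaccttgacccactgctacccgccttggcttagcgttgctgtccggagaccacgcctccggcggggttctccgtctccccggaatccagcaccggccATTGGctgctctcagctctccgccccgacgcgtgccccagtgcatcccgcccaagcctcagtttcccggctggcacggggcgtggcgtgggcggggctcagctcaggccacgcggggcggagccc
Slc25a36: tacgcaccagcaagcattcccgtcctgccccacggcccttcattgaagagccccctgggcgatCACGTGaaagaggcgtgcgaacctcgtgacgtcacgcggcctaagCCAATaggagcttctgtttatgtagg
CACGTG begins 125 bases before the start in Slc25a13, 8 in Slc25a33, 239 in Slc25a1 and 187 in Slc25a36. For Slc25a36 the 134 bases before the gene's 5′ end in the deposited table are shown, because that table places the gene farther out than RefSeq does. In Slc25a33 the deposited gene also begins 10 bases before the RefSeq start, so its E-box lies within the gene as deposited. The motif was in 2 of 4 windows of members called higher, 2 of 4 of those called lower and 3 of 32 (9.38%) of those not called. Of all 32851 windows 7.15% held it, and of the 12129 windows of tested genes 9.89%. CCAAT on either strand was in 2 of 4 windows of members called higher, 4 of 4 of those called lower and 43.8% of those not called, against 37.4% of all windows. The windows of 1 gene can overlap, and both windows of Slc25a23 are among the 4 lower ones. Among the uncalled windows with CACGTG, overlapping windows of Slc25a14 hold the same copy of the motif. GCGCATGC was in 1 of the 42 windows, that of the untested Slc25a54, against 2.71% of all windows and 5.19% of those of tested genes. TGATGNAA was in 0 of the 42, against 3.97% of all and 2.25% of those of tested genes. A match is a description of the letters, not a site.

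Levels of different genes were compared as FPKM, the authors' values scaled by gene length and library size. The deposited length can be far below all exonic bases of a gene in GENCODE (2777 against 8386 for Slc25a40, 1685 against 2756 for Slc25a39). Ranks and shares between genes therefore depend on the length used. Slc25a5, the main exchanger of ADP for ATP in dividing cells, stood far above the others at a mean of 597 FPKM in medium, followed by the phosphate carrier Slc25a3 (135) and the adenine nucleotide carrier Slc25a4 (110). These were the 3 members above 100 FPKM, and they held 65.2% of the FPKM summed over the family. The citrate carrier Slc25a1 came next (60.2 FPKM), then the oxoglutarate carrier Slc25a11 (44.2) and the glutathione carrier Slc25a39 (43.3), which overlapped each other between libraries. At the low end 9 members were under 1 FPKM. The summed FPKM of the family was 1294, 1331 and 1300 in medium and 1366, 1340 and 1357 with CpdA, so that the CpdA libraries were higher without overlap. Without Slc25a5 the sums were 706, 719 and 709 in medium and 711, 696 and 712 with CpdA, which overlap.

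**Figure D2:**
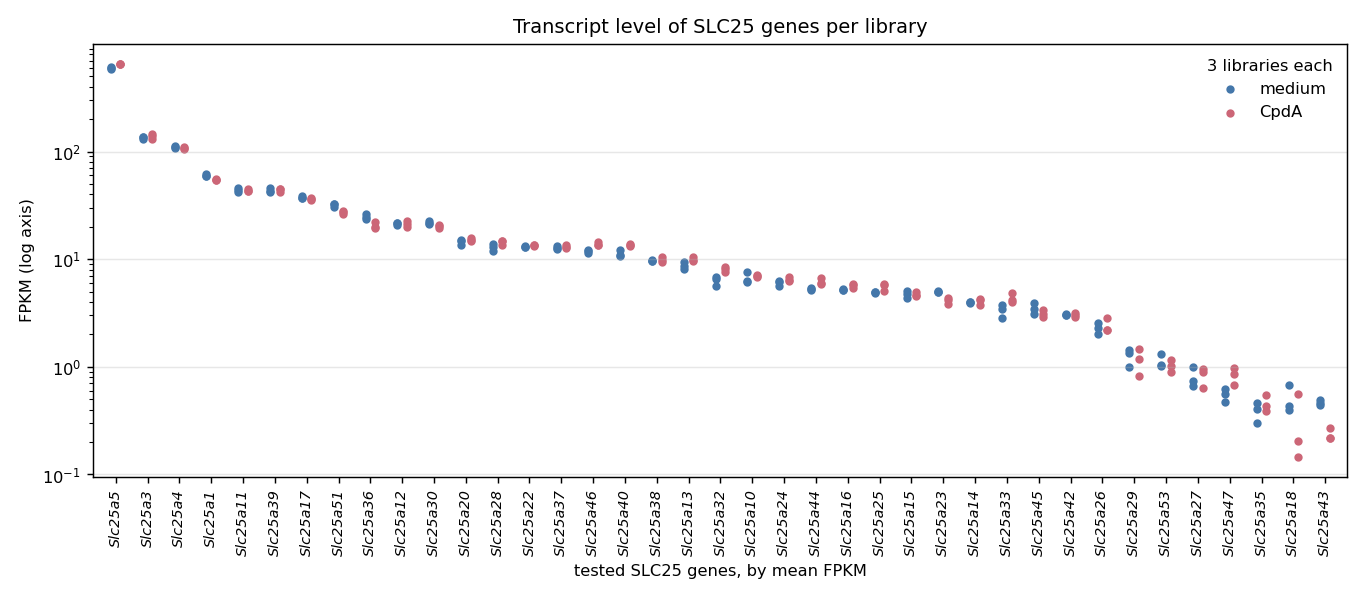
FPKM (log axis) of 39 tested SLC25 genes in each of 3 medium and 3 CpdA libraries, ordered by mean level. Slc25a5 is highest at 597 FPKM in medium, and for most genes the points of the groups lie close together.

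Among carriers of adenine nucleotides and phosphate, 1 of 6 tested members rose and 1 fell. Of all tested genes 16.5% rose and 16.7% fell. Slc25a5 was at 730, 759 and 732.5 CPM in medium and at 812, 798 and 800 CPM with CpdA. Every CpdA library was above every medium library, and the gene rose by 0.11 on the log2 scale (SE 0.027, adjusted p 0.00134). Pseudogenes at least 95% identical over long stretches, Gm5529 and Gm5560, had 66 and 75 counts against 107724 for Slc25a5 in all libraries together. Slc25a4, which carries the same substrates and dominates in heart and muscle, was at 210, 218 and 207 CPM in medium and 204, 210 and 212 CPM with CpdA. Its groups overlapped (log2 fold change -0.03, SE 0.031, adjusted p 0.515). Slc25a3, which imports phosphate for ATP synthesis, was at 533, 555 and 545 CPM in medium and 582, 530 and 561 CPM with CpdA, again with overlap (log2 fold change 0.02, SE 0.030, adjusted p 0.579).

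The ATP-Mg/phosphate carriers, which set the adenine nucleotide content of the matrix and mostly respond to calcium, did not move as one. Slc25a23 was at 16.7, 16.9 and 16.5 CPM in medium and 12.9, 13.9 and 14.7 CPM with CpdA. The CpdA libraries were all lower, and the gene fell by 0.28 on the log2 scale (SE 0.081, adjusted p 0.00709). Slc25a24 differed by 0.09 on the log2 scale, with overlapping groups (adjusted p 0.374). Slc25a25 was at 17.2, 17.3 and 17.5 CPM in medium and 20.9, 17.7 and 20.5 CPM with CpdA. Its groups did not overlap, yet its log2 fold change of 0.17 (SE 0.076) missed the threshold (adjusted p 0.0843). Without CpdA replicate 2, its lowest CpdA library, the value was 0.24 with an adjusted p of 0.0188. Slc25a41 was untested, with 5 counts in medium and 4 with CpdA.

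The citrate and dicarboxylate carriers link the citrate cycle to the cytosol, and 1 of 3 fell, against 16.7% of all tested genes. Slc25a1, which exports the citrate used to make lipid and acetyl groups, was at 100.2, 99.2 and 104 CPM in medium and 91.9, 92.9 and 91.1 CPM with CpdA. The groups were apart, and Slc25a1 fell by 0.14 on the log2 scale (SE 0.038, adjusted p 0.00303). Slc25a11, the oxoglutarate carrier of the malate-aspartate shuttle, was at 72.5, 78.7 and 75.5 CPM in medium and 73.1, 74.0 and 76.6 CPM with CpdA. Its groups overlapped (log2 fold change -0.03, adjusted p 0.652). Slc25a10, the dicarboxylate carrier, had a log2 value of 0.05 for CpdA over medium (adjusted p 0.710).

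Of 8 tested amino acid carriers, 2 rose and 0 fell, against 16.5% and 16.7% of all tested genes. Slc25a44, which imports branched-chain amino acids, was at 19.2, 18.9 and 18.3 CPM in medium and 23.96, 21.5 and 21.1 CPM with CpdA. The groups did not overlap, and it rose by 0.23 on the log2 scale (SE 0.072, adjusted p 0.0137). The adjusted p became 0.0568 without medium replicate 3 and 0.104 without CpdA replicate 1. Slc25a13, an exporter of aspartate in exchange for glutamate and part of the malate-aspartate shuttle, was at 25.5, 29.3 and 27.2 CPM in medium and 33.0, 29.8 and 30.6 CPM with CpdA. Medium replicate 2 came close to CpdA replicate 2, and the rise of 0.17 on the log2 scale (SE 0.063, adjusted p 0.0323) was among the least firm. Its adjusted p was 0.167 without medium replicate 1, 0.0831 without medium replicate 3, 0.162 without CpdA replicate 1 and 0.0522 without CpdA replicate 3, and it was 0.0742 in DESeq2. The other aspartate-glutamate carrier, Slc25a12, was at 131, 136 and 139 CPM in medium and 142, 126 and 136 CPM with CpdA. These overlapped (log2 fold change -0.02, SE 0.038, adjusted p 0.763). In Slc25a12 a stretch of 247 bases is shared with Adpgk, so reads there could have been assigned to either gene.

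Among the remaining amino acid carriers, log2 fold changes were 0.03 for the glutamate carrier Slc25a22 (adjusted p 0.672), 0.02 for the glycine carrier Slc25a38 (0.879) and -0.02 for the ornithine carrier Slc25a15 (0.891). Slc25a29, a carrier of basic amino acids, was at 1.97 to 2.82 CPM in medium and 1.63 to 2.89 CPM with CpdA (log2 fold change -0.12, adjusted p 0.706). Slc25a18, a second glutamate carrier, had 46 counts in medium and 31 with CpdA (log2 fold change -0.70, SE 0.441, adjusted p 0.240). The value of Slc25a18 was -1.53 (adjusted p 0.0260) without CpdA replicate 2, the CpdA library in which it was highest. Leaving out any other library gave -0.83 to -0.34, with adjusted p from 0.220 to 0.642. The exons of Slc25a18 overlap those of Atp6v1e1 on the opposite strand (7060 counts against 77). The ornithine carrier Slc25a2 was untested at 14 counts in medium and 8 with CpdA.

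Cofactor carriers held changes in both directions, 1 rise and 2 falls among 7 tested members. Of all tested genes 16.5% rose and 16.7% fell. Slc25a32, which brings folate and FAD into the matrix, was at 20.1, 19.3 and 16.6 CPM in medium and 25.1, 23.9 and 22.3 CPM with CpdA. All CpdA libraries were higher, and it rose by 0.34 on the log2 scale (SE 0.075, adjusted p 0.000385). Slc25a51, the carrier of NAD, was at 144, 137 and 144 CPM in medium and 116, 125 and 122 CPM with CpdA. The groups were well apart, and Slc25a51 fell by 0.24 on the log2 scale (SE 0.036, adjusted p 1.27e-06), the smallest p among the members. Stretches of at most 161 bases in its transcript are at least 95% identical to parts of 15 other genes, so a part of its reads could be shared.

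Slc25a26, which imports S-adenosylmethionine for methylation in mitochondria, was at 3.90, 4.86 and 4.37 CPM in medium and 4.20, 4.20 and 5.48 CPM with CpdA. The groups overlapped (log2 fold change 0.07, SE 0.148, adjusted p 0.772), and the exons overlap those of the more abundant Lrig1 on the opposite strand (6474 counts against 631). The coenzyme A carriers Slc25a16 and Slc25a42 had log2 fold changes of 0.13 (adjusted p 0.209, groups without overlap) and -0.01 (adjusted p 0.965). Slc25a17, which carries coenzyme A, FAD and NAD in peroxisomes, had -0.06 (adjusted p 0.312).

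Both pyrimidine nucleotide carriers changed, in opposite directions, while 33.2% of all tested genes changed. Slc25a33, which supplies pyrimidine nucleotides for mitochondrial DNA and RNA, was at 6.47, 7.06 and 5.38 CPM in medium and 7.47, 7.94 and 9.17 CPM with CpdA. The lowest CpdA library was just above the highest medium library, and Slc25a33 rose by 0.37 on the log2 scale (SE 0.12, adjusted p 0.0142). The adjusted p was 0.135 without medium replicate 3 and 0.118 without CpdA replicate 3. Its antisense neighbour Gm13068 shares 14.9% of its exonic bases and had 19 counts against 1018. Slc25a36, which carries a similar range of nucleotides, was at 138, 123 and 129 CPM in medium and 103, 115 and 103 CPM with CpdA. Each CpdA library was below each medium library, and Slc25a36 fell by 0.29 on the log2 scale (SE 0.044, adjusted p 4.48e-06). Since Slc25a36 was the more abundant of the pair (24.9 against 3.34 FPKM in medium), the rise of Slc25a33 started from a far lower level.

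Of the 2 glutathione carriers, which bring the main thiol antioxidant into mitochondria, 1 rose, against 16.5% of all tested genes. Slc25a40 was at 33.8, 29.5 and 30.2 CPM in medium and 36.9, 38.0 and 38.5 CPM with CpdA. The groups did not overlap, and it rose by 0.27 on the log2 scale (SE 0.058, adjusted p 0.00029). Slc25a39, its more abundant relative, was at 70.8, 76.5 and 71.8 CPM in medium and 74.8, 70.9 and 75.4 CPM with CpdA. These values overlapped, and the log2 fold change was 0.00 (SE 0.044, adjusted p 0.985).

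Neither iron carrier was called. Slc25a37 (mitoferrin of red cell precursors) was at 75.8, 74.5 and 78.8 CPM in medium and 77.7, 74.6 and 80.1 CPM with CpdA, and its adjusted p was 0.879 (log2 fold change 0.01). Slc25a28, the more widely expressed mitoferrin, was at 18.1, 20.9 and 19.5 CPM in medium and 22.3, 20.5 and 22.2 CPM with CpdA (log2 fold change 0.14, SE 0.073, adjusted p 0.148). Both overlapped between groups.

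Slc25a46 lies in the outer membrane, where it takes part in fusion and fission of mitochondria. It was at 49.5, 53.6 and 51.8 CPM in medium and 62.6, 59.3 and 59.1 CPM with CpdA. All 3 CpdA libraries were higher, and it rose by 0.21 on the log2 scale (SE 0.048, adjusted p 0.000493). Slc25a20, which exchanges acylcarnitine for carnitine in fatty acid oxidation, was at 24.4, 26.7 and 26.0 CPM in medium and 27.0, 26.2 and 27.8 CPM with CpdA. Its groups overlapped (log2 fold change 0.06, SE 0.063, adjusted p 0.542).

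The members related to uncoupling proteins had log2 fold changes of 0.02 (Slc25a14, adjusted p 0.902), 0.03 (Slc25a27, 0.945) and -0.11 (Slc25a30, 0.110, groups without overlap). Members with no substrate assigned here were mostly at low levels, and 0 of 5 tested were called, against 33.2% of all tested genes. Slc25a45 and Slc25a53 had log2 fold changes of -0.15 (adjusted p 0.309) and -0.15 (0.470), and Slc25a35 had 0.22 (0.553). With 1 library left out these values ran from -0.23 to -0.07, from -0.24 to -0.04 and from 0.06 to 0.35. Slc25a43 had 40 counts in medium and 22 with CpdA (log2 fold change -0.98, SE 0.443, adjusted p 0.0858), and Slc25a47 had 58 and 96 (0.60, SE 0.297, adjusted p 0.122). The groups of Slc25a43 and of Slc25a47 did not overlap, so that a larger fold at this depth still missed the threshold. Slc25a34 had 3 counts in medium and 5 with CpdA, and Slc25a54 had 0 counts in medium, which allows up to 0.0449 CPM over the group for counting error alone, and 1 count with CpdA.

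Precision went with depth. The 11 tested members under 10 CPM in medium had a median SE of 0.214, and 1 of them changed (Slc25a33). The 29 members at or above 10 CPM had a median SE of 0.0553, and 11 of them changed. A change of the size seen in Slc25a5 was therefore not detectable in the weakly expressed members. Overlapping exons on the opposite strand touched further members, among them Slc25a11 with Rnf167 (4048 counts against 10470), Slc25a25 with Naif1 (1209 against 2581) and Slc25a46 with B930094E09Rik (9 against 7823). Reads from such stretches cannot be told apart if the counting did not use strand.

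**Figure D3:**
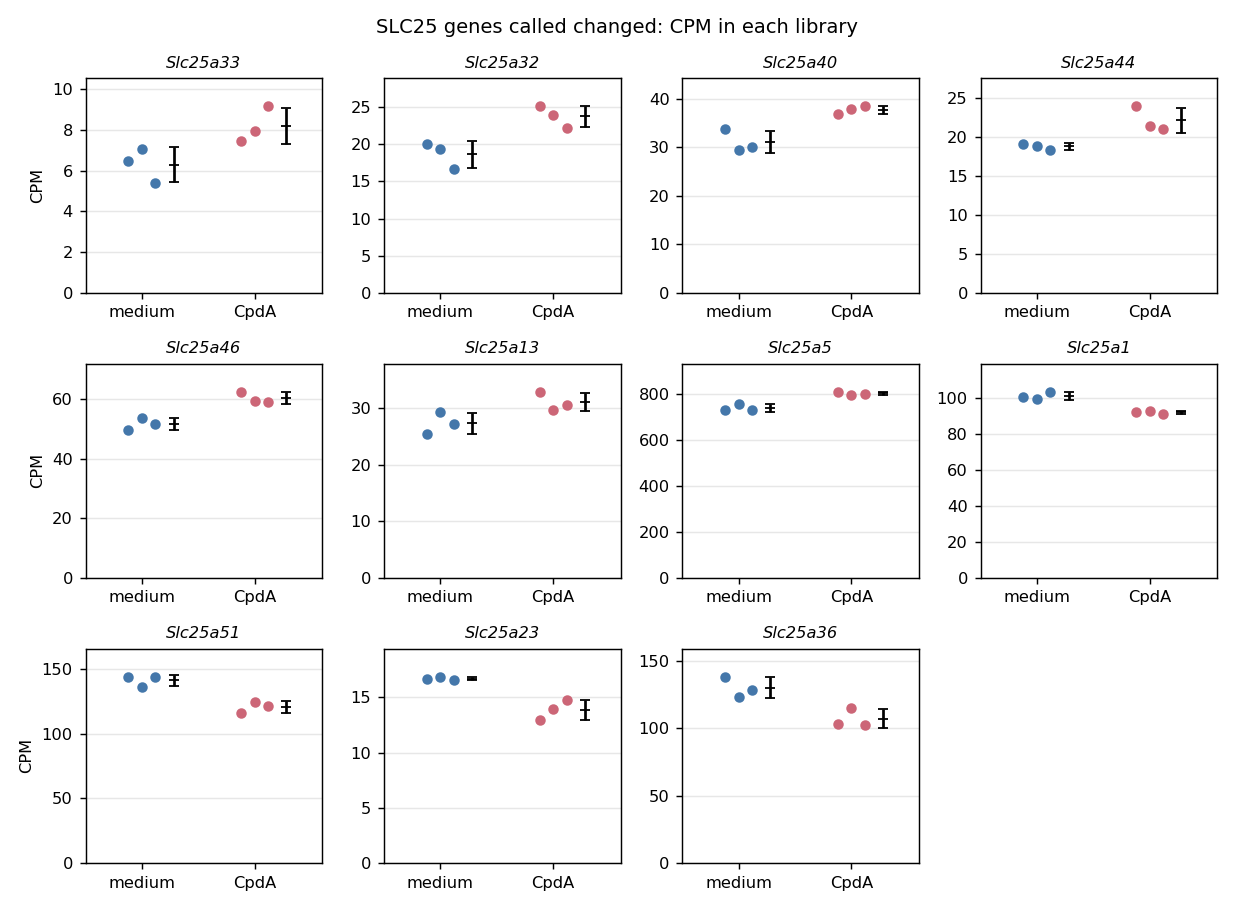
CPM in each library (points) of 11 SLC25 genes that changed, with the mean and SD of each group (n = 3), each panel starting at 0. In every panel the groups are separate, by the smallest margin relative to its level in Slc25a13.

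Related members, most of them paired by substrate, were next compared within each library, as the log2 ratio of their FPKM. The 10 pairs were chosen with the fold changes known. An exact two-sided permutation test cannot go below 0.1 with 3 libraries against 3, so no pair could pass 0.05, and p-values were adjusted over the 10 pairs. Slc25a33 made up 11.8 ± 1.7% (SD, n = 3) of the FPKM of Slc25a33 and Slc25a36 in medium and 17.5 ± 2.03% with CpdA. The ratio was 0.66 higher on the log2 scale with CpdA, without overlap (exact p 0.1, adjusted 0.167). Slc25a40 went from 20.6 ± 1.77 to 23.7 ± 0.747% of the glutathione pair, and the ratio differed by 0.27 without overlap (exact p 0.1, adjusted 0.167). Slc25a13 went from 29.1 ± 1.14 to 32.0 ± 0.53% of the aspartate-glutamate pair, a difference in ratio of 0.20 (exact p 0.1, adjusted 0.167). Slc25a5 made up 84.5 ± 0.15% of the adenine nucleotide pair in medium and 85.7 ± 0.344% with CpdA (difference in ratio 0.14, exact p 0.1, adjusted 0.167). In these 4 pairs the member that rose gained share, which restates the fold changes known when the pairs were chosen. Slc25a5 stayed dominant in its pair.

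Against Slc25a23, which fell, the ratio of Slc25a24 was 0.37 higher and that of Slc25a25 0.45 higher on the log2 scale with CpdA. Both were without overlap (exact p 0.1, adjusted 0.167). They share Slc25a23 and in part restate its fall, which was known when the pairs were chosen. The ratios of Slc25a25 to Slc25a24 (exact p 0.4, adjusted 0.4), Slc25a16 to Slc25a42 (0.2, adjusted 0.286), Slc25a28 to Slc25a37 (0.3, adjusted 0.333) and Slc25a14 to Slc25a30 (0.3, adjusted 0.333) overlapped between groups in the same exact test.

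**Figure D4:**
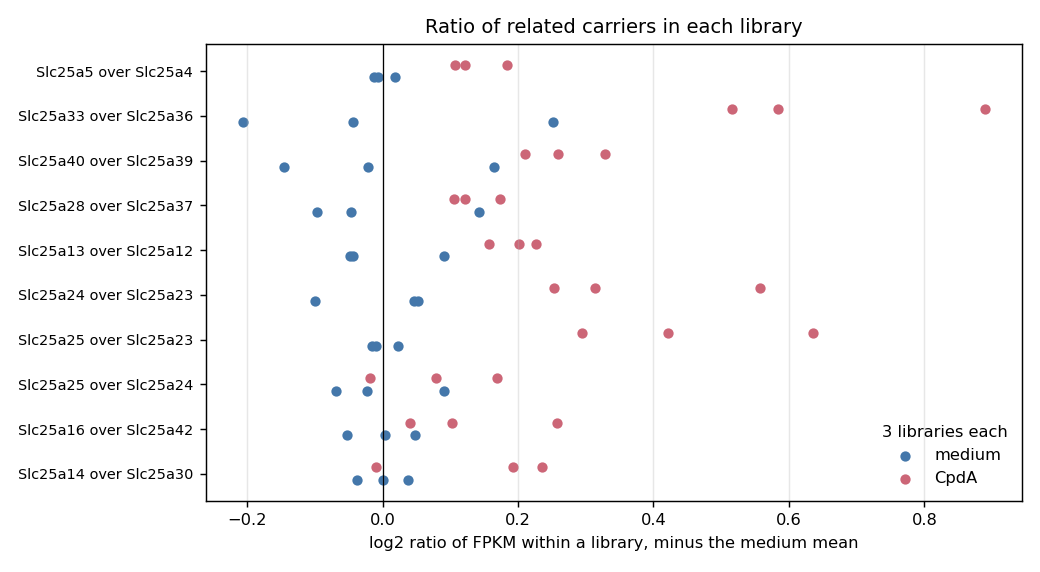
Log2 ratio of FPKM of 10 pairs of related SLC25 genes in each library, minus the medium mean of the pair (3 medium and 3 CpdA libraries). The groups do not overlap in 6 pairs, and the difference is greatest for Slc25a33 over Slc25a36, at 0.66. All pairs were chosen with the fold changes known, and each of these 6 holds a called member.

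The genes that work with the carriers were taken from 11 lists (144 genes, 139 tested), which were made with earlier results of these data known and were not tested as sets. In these lists 33 genes rose and 19 fell, with a median log2 fold change of 0.02. Together they are 37.4% of the tested list genes, near the 33.2% of all tested genes. Among the lists with 9 or more tested genes the share changed ran from 15.8% (carnitine and fatty acid oxidation) to 58.3% (carrier import). Of the 12 tested genes that import carriers, 7 rose (58.3%, against 16.5% of all tested genes) and 0 fell. All 12 had a positive log2 fold change, as did 50.1% of all tested genes, and the median was 0.17. Timm10, one of the small chaperones that carry these proteins across the intermembrane space, was at 8.99, 7.95 and 9.97 CPM in medium and 13.5, 11.5 and 11.9 CPM with CpdA. It rose by 0.44 on the log2 scale (adjusted p 0.000608). Timm13 (0.19, adjusted p 0.000379) and Timm8a1 (0.30, adjusted p 0.00197), which form another of these chaperone complexes, rose too, as did Tomm40, the channel of the outer membrane (0.21, adjusted p 6.66e-05). Leaving out 1 library at a time left 5 to 7 of these 12 genes called.

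The channels through which metabolites reach the carriers changed in both directions. Vdac1, the most abundant of these outer membrane channels, fell by 0.21 on the log2 scale (adjusted p 1.26e-07), while Vdac2 rose by 0.13 (adjusted p 0.00108) and Vdac3 by 0.15 (adjusted p 0.00431, or 0.0728 without medium replicate 1). Family members under other symbols gave 1 rise and 1 fall among 3 tested (66.7%, against 33.2% of all tested genes). Mtch2, which inserts proteins into the outer membrane, rose by 0.18 (adjusted p 0.00067). Its relative Mtch1 fell by 0.11 (adjusted p 0.0196, and 0.0588, 0.0804 and 0.0597 without medium replicate 3, CpdA replicate 1 and CpdA replicate 3). Ucp2, an uncoupling protein family member abundant in lymphocytes, had a log2 value of -0.04 for CpdA over medium (adjusted p 0.330). Other inner membrane transporters had 2 higher and 3 lower of 18 (27.8%). Mcu, the pore of the calcium uniporter, fell by 0.32 (adjusted p 8.91e-07) and the sideroflexin Sfxn3 by 0.31 (adjusted p 0.000195). Letm1, a cation exchanger, rose by 0.27 (adjusted p 4.27e-05), and the serine transporter Sfxn1 rose by 0.11 (adjusted p 0.0205, and 0.115 and 0.0787 without medium replicate 1 and CpdA replicate 1).

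Enzymes beside the changed carriers also split. Around Slc25a1, the citrate cycle and citrate list had 6 rises and 4 falls among 24 genes (41.7%, against 33.2% of all tested genes). Acly, which splits exported citrate in the cytosol, fell by 0.15 (adjusted p 8.11e-05), pyruvate carboxylase (Pcx) by 0.51 (adjusted p 1.18e-11) and malic enzyme Me2 by 0.36 (adjusted p 1.38e-11), while Dlst of the oxoglutarate dehydrogenase complex rose by 0.21 (adjusted p 1.94e-05). Around Slc25a32, 3 of 9 mitochondrial folate genes rose and 1 fell (44.4%), with a median log2 fold change of -0.10. Shmt2 and Mthfd2, which make one-carbon units from serine, rose by 0.22 (adjusted p 1.12e-05) and 0.19 (adjusted p 7.06e-06). Gcsh of glycine cleavage rose by 0.29 (adjusted p 0.00294), and Mthfd1l, which releases formate, fell by 0.13 (adjusted p 0.000627).

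Around Slc25a13, the shuttle enzymes had 2 rises and 2 falls among 6 tested genes (66.7%, against 33.2% of all tested genes). The cytosolic enzymes Mdh1 and Got1 fell by 0.18 (adjusted p 1.72e-05) and 0.12 (adjusted p 0.00235). Gpd1l, related to glycerol phosphate dehydrogenase, rose by 0.29 (adjusted p 0.00109). The mitochondrial aminotransferase Got2 rose by 0.08 (adjusted p 0.0335), and its adjusted p was 0.0820 to 0.198 without any one of medium replicates 1 and 3 and CpdA replicates 1 and 3. The nucleotide and cofactor list, around Slc25a33 and Slc25a36, had a median log2 fold change of -0.05. Of its 15 genes 0 fell and 3 rose (20%, against 16.5% of all tested genes). These were the nucleotide kinase Cmpk2 (0.56, adjusted p 0.00319), the ribonucleotide reductase subunit Rrm2b (0.24, adjusted p 0.0087) and the mitochondrial DNA packaging factor Tfam (0.19, adjusted p 0.00348, or 0.0537 without medium replicate 1).

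Of the genes for haem and iron-sulphur cluster synthesis, beside the iron carriers, 3 rose and 3 fell among 18. This is 33.3%, against 33.2% of all tested genes. Lyrm4 and the ferredoxin Fdx1l rose by 0.45 (adjusted p 0.0015) and 0.33 (adjusted p 0.000486), and ferredoxin reductase Fdxr and the haem enzyme Ppox fell by 0.37 (adjusted p 3.37e-07) and 0.26 (adjusted p 0.00016). Glutamine, ornithine and proline enzymes had 3 rises and 2 falls among 12 (41.7%). The glutaminase Gls2 fell by 0.53 (adjusted p 4.86e-11) and Glud1, glutamate dehydrogenase, by 0.16 (adjusted p 4.36e-05). Bcat1, which acts on the branched-chain amino acids that Slc25a44 carries, rose by 0.11 (adjusted p 0.0427), and its adjusted p was 0.0896 to 0.232 without any one of medium replicates 1 and 3 and CpdA replicates 1 and 3. Beside Slc25a20, 1 of 19 genes of carnitine and fatty acid oxidation rose and 2 fell (15.8%). Cpt1a, which makes the acylcarnitine that Slc25a20 carries, rose by 0.35 (adjusted p 5.5e-06). Hadh and Acads, enzymes of the oxidation spiral, fell by 0.20 (adjusted p 0.000525) and 0.16 (adjusted p 0.0139, and 0.0522 and 0.0773 without medium replicate 3 and CpdA replicate 3).

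**Figure D5:**
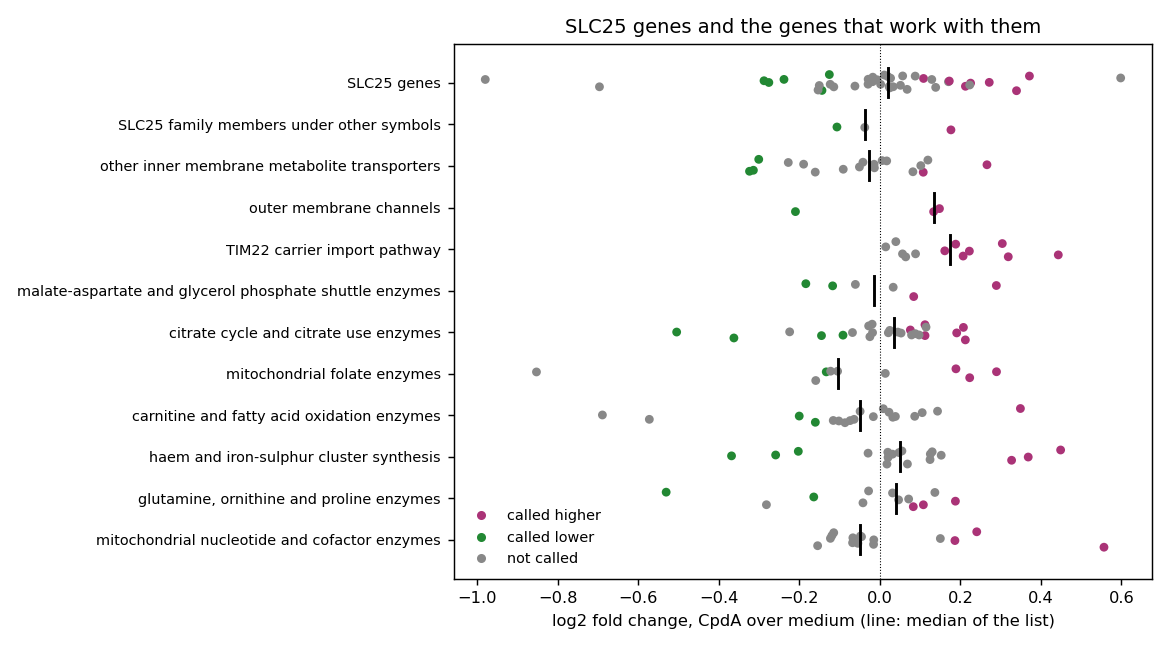
Log2 fold change of CpdA over medium for the tested SLC25 genes and for 11 lists of genes that work with them (points, coloured by call, with the median of each list as a line). The carrier import genes all lie above 0, with a median of 0.17, and the other lists spread to both sides.

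Beside other nuclear genes of mitochondria, the SLC25 genes had changes in both directions. Of 88 tested genes for respiratory chain subunits, 9 rose and 4 fell (14.8%), with a median absolute log2 fold change of 0.05. It was 0.12 for the SLC25 genes and 0.14 for all tested genes, of which 33.2% changed. Of 76 mitochondrial ribosomal protein genes, 28 rose and 1 fell (38.2%), with a median log2 fold change of 0.10. By direction, 16.5% of all tested genes rose and 16.7% fell. A positive log2 fold change was found in 80.3% of these ribosomal protein genes, against 50.1% of all tested genes. The difference between these groups of genes was not tested.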

How the data were processed

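RNA was measured in 6 libraries, 3 per group, grouped from the labels alone. Per the file headers, 1 deposited table gives each gene's raw read counts together with FPKM values by the authors, which recomputing from counts, gene length and library totals returned within a relative difference of 1.86e-07. CASAVA 1.8 and the builds GRCm38 and mm10 are named in the submitters' processing notes. The sources used here name no aligner, counter or strand setting, and reads of genes that overlap on opposite strands may not have been separated.

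Counts were tested in R 4.3.3 with edgeR 4.0.16 (quasi-likelihood, TMM scaling, robust, no covariate) after filterByExpr (minimum count 10, minimum total 15), with Benjamini-Hochberg adjustment over all 13507 genes and 0.05 as the threshold. Fold changes are log2 values with their SE, and CPM are scaled by the library total. A count of 0 allows up to 3 counts, for counting error only. Alternatives used other scalings and filters, DESeq2 1.42.0, limma-voom (limma 3.58.1), a replicate block, glmTreat against 1.1-fold and each library left out. For the import list and the named list genes, DESeq2 and the left-out libraries were added after the data were seen. The edgeR, DESeq2, limma-voom and glmTreat fits were run on simulated counts. Changes under 1.25-fold, the size of most called members, and the ratio, promoter and transcript steps were not simulated. Similar transcripts were found with blastn 2.17.0 in GENCODE transcripts of GRCm38 (at least 95% identity over at least 150 bases). Promoters are RefSeq's.

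The members, roles and lists were chosen with earlier results of these data known. Named members are all changed ones, the 5 with the highest FPKM and a set chosen by role, and named list genes are up to 4 changed genes with the smallest p in each list. A few genes that the rule takes enter the counts but are not reported here by name. Ucp2, the markers and the genes that overlap or resemble members lie outside that rule and were picked with their values in view.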

Additional observations from a re-analysis of the deposited data

How the results depend on the processing

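The number of changed SLC25 genes was 12 in the reported test, 12 with DESeq2 size factors, 11 with library size alone, 11 with no count filter, 12 with at least 5 CPM in 3 libraries, 10 in DESeq2 and 12 in limma-voom. Leaving out 1 library at a time gave 8 (without medium replicate 3) to 13 (without CpdA replicate 2), while all genes gave 3660 to 4336 and the list genes 41 to 54. With glmTreat, which asks for more than a 1.1-fold change, 4 SLC25 genes (Slc25a32, Slc25a36, Slc25a40 and Slc25a51), 18 list genes and 1861 of all genes were called. Of the 12 changed members, 8 kept their call in all 13 alternatives other than glmTreat, and 4, among them Slc25a13, Slc25a33 and Slc25a44, lost it in at least 1. Of 39 list genes taken by the naming rule, 32 kept theirs in DESeq2 and without each library in turn.

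With the replicate block, 10 SLC25 genes, 44 list genes and 3936 of all genes were called, and Slc25a13 (adjusted p 0.0522) was among those no longer called. The same-numbered libraries correlated across genes at -0.059, -0.086 and -0.02 in their deviations from the group means, against -0.005 to 0.064 for other pairs. No pairing by number was seen. Deviations of 3 libraries from their mean constrain each other, so these values cannot exclude such pairing.

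Signs reversed in 26 cases, for 13 uncalled members and 0 changed ones, with adjusted p of at least 0.634, and the cause was not tested. Slc25a42 was at 0.0023 with library size alone, and Slc25a39 at -0.0080 with at least 5 CPM in 3 libraries. The other reversals came with 1 library left out, where the log2 fold change ran from -0.0345 to 0.0267 for Slc25a42, -0.0564 to 0.0020 for Slc25a11, -0.0194 to 0.0380 for Slc25a39, -0.3437 to 0.0811 for Slc25a29, -0.0962 to 0.2216 for Slc25a27, -0.0021 to 0.1627 for Slc25a10 and -0.0559 to 0.0286 for Slc25a12. It ran from -0.0151 to 0.0796 for Slc25a14, -0.0667 to 0.0331 for Slc25a15, -0.0168 to 0.0513 for Slc25a38, -0.0108 to 0.0387 for Slc25a37, -0.0705 to 0.1521 for Slc25a26 and -0.0056 to 0.0601 for Slc25a3.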

Other observations

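Members of the family lie on 18 chromosomes, and 4 pairs lie within 50000 bases of each other with 0 listed genes between them. The gap is 2057 bases for Slc25a23 and Slc25a41 (chromosome 17), 6462 for Slc25a24 and Slc25a54 (chromosome 3), 15246 for Slc25a29 and Slc25a47 (chromosome 12) and 18449 for Slc25a5 and Slc25a43 (chromosome X). In each pair 1 member was far below the other or both were low: Slc25a41 and Slc25a54 had too few counts to test beside neighbours that were tested, and Slc25a43 had a mean of 0.599 CPM in medium beside 740 for Slc25a5. Within the X chromosome pair, Slc25a5 rose, and Slc25a43 had a log2 fold change of -0.98 with an adjusted p of 0.0858 in edgeR.

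Shares within the outer membrane pairs, computed in the same way as for the carriers, were also apart between the groups. Vdac2 made up 30.7 ± 0.457% (SD, n = 3) of the FPKM of Vdac2 and Vdac1 in medium and 36.0 ± 1.18% with CpdA, and Vdac3 made up 25.6 ± 1.19 and 30.7 ± 0.53% of its FPKM summed with Vdac1. Mtch2 made up 29.6 ± 0.411% of the Mtch pair in medium and 33.9 ± 0.424% with CpdA. Each of these 3 differences had an exact two-sided permutation p of 0.1, the smallest that 3 libraries against 3 can give, and the pairs were chosen after their fold changes were seen.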
